A study of Mus musculus with 50 samples.

Results

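Macrophages that enter tumors take on different states, and a small set of genes is commonly used to describe them. The expression of 10 such genes was examined by bulk RNA sequencing of 48 mouse sarcomas: Arg1, Nos2, Acod1, Chil3, Retnla, Mrc1, Cd163, Mertk, Cx3cr1 and F10. They were taken as the rows of the count table whose Ensembl identifier maps to these symbols. The members were chosen with earlier results of these data known, so counts of members beside the share of all genes are a description. All 10 were found among the 37469 gene identifiers of the table, and all 10 passed the filter on low counts, which left 19327 genes for testing.

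The sarcomas were p53/MCA tumors, and the design crossed the tumor model with radiation and with antibody. The 32 primary tumors arose independently in Trp53 fl/fl mice of the 129/SvJae strain, injected in the gastrocnemius at 6 to 10 weeks of age with an adenovirus carrying Cre, which deletes Trp53 in the infected cells, and then with 300 µg of the carcinogen 3-methylcholanthrene (MCA). The 16 transplants (named allografts in the labels) all grew from 50000 injected cells of the single line 402230 in the same muscle of syngeneic mice, so they share 1 tumor of origin, and the age of the recipients is not given. At a tumor volume of up to 150 mm3, each mouse received 200 µg of the anti-PD-1 antibody muDX400 or of an isotype control. It then received 0 or 20 Gy to the tumor-bearing hind limb, and tumors were taken 3 days later. There were 8 primary tumors and 4 transplants for each combination of dose and antibody, with 1 library per tumor. Tumors given the isotype antibody and 0 Gy are called untreated below. The study asked how transplants and primary tumors differ in their immune response to this treatment.

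Classically activated macrophages, driven by interferon-γ and bacterial products, make nitric oxide and itaconate, while alternatively activated macrophages, driven by IL-4 and IL-13, split arginine into ornithine and urea and secrete chitinase-like and resistin-like proteins. Nos2 (inducible nitric oxide synthase) and Acod1 (the enzyme that makes itaconate) stand for the first state, and Arg1 (arginase 1), Chil3 (the chitinase-like lectin Ym1) and Retnla (the resistin-like protein Fizz1) for the second. Mrc1 (the mannose receptor CD206), Cd163 (the scavenger receptor for haemoglobin bound to haptoglobin), Mertk (a receptor for the engulfment of apoptotic cells) and Cx3cr1 (the fractalkine receptor of monocytes and macrophages) mark macrophages of many tissues, and F10 encodes coagulation factor X, made mainly in the liver and also by macrophages. Several of these transcripts are also found in other cells: neutrophils can carry Chil3 and Arg1, and adipose tissue can carry Retnla.

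Total counts ran from 31810461 to 54008259 per tumor library. The labelled tissue was checked with 12 general macrophage genes that do not include the members (among them Adgre1, Csf1r and C1qa). Their summed level was at least 1833 CPM in every tumor, in CPM (counts scaled to a common library size, here over all 50 libraries). The 2 single libraries of line 402230 went against their labels. The library labelled as the untreated primary tumor of mouse 402230 had a summed macrophage level of 14.8 CPM, with 8 of the 12 genes at 3 counts or fewer. There 8 of 9 T and NK cell genes were at 0. Summed endothelial and skeletal muscle levels were 0.603 and 4.56 CPM, below the lowest tumors at 134.8 and 14.7 CPM. Its summed monocyte level of 274 CPM lay within the range of the tumors, but 3 of the 5 monocyte genes had 3 counts or fewer, 2 of them 0. The library labelled as the cell line had 2053 CPM and none of the 12 at 3 counts or fewer. Neither library entered a comparison between groups.

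Levels per length of exon set the members apart. On the scale of mean CPM per kilobase over the 48 tumors, Mrc1 (27.8) and Cx3cr1 (27.6) were the most abundant members. Chil3 (17.2), Arg1 (17) and Acod1 (13.8) followed, then Mertk (9.34), F10 (3.46), Retnla (2.80), Cd163 (2.09) and Nos2 (2.0). The spread between tumors did not follow this order. From the lowest to the highest tumor, Mertk varied 8.0-fold, Mrc1 16.7-fold and Nos2 17.2-fold, against 256-fold for Arg1, 334-fold for F10 and 367-fold for Chil3. Retnla had no counts in 3 tumors and at most 3 counts in 8, so its differences are the least certain of the set.

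Of the promoters of the members, 8 of 10 were found in the RefSeq table used here, and the 250 bases before the start were searched on both strands for the letters bound by factors of the 2 activation states. The motifs given here are the interferon response element (GAAA, any 2 bases, GAAA), the STAT6 site (TTC, any 4 bases, GAA), AP-1 (TGANTCA) and C/EBP (TTGCNNAA). The promoters shown are those of the member with the largest fold after radiation with isotype, Acod1, and of Retnla, which held 2 of these motifs, each 5′ to 3′ on the strand of the gene, with matches in capitals.
Acod1, chr14:103046762-103047011, plus strand, GRCm38.p6: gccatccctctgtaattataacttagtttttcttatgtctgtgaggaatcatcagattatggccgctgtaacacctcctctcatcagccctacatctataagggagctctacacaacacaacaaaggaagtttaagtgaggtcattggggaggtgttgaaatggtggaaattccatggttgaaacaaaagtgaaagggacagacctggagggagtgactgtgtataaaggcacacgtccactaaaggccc
Retnla, chr16:48842359-48842608, plus strand, GRCm38.p6: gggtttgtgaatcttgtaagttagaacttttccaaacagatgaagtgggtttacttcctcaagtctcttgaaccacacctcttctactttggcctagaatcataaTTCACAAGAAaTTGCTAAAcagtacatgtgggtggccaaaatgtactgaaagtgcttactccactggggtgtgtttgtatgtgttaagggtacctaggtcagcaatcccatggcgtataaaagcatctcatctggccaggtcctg

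Retnla held the STAT6 letters TTCACAAGAA beginning 145 bases before its RefSeq start, which lies inside the GENCODE gene model, followed after 1 base by the C/EBP letters TTGCTAAA. Over all 32851 promoters of the table, 2.98% held the interferon response letters, 5.85% the STAT6 letters, 6.75% those of AP-1 and 9.56% those of C/EBP. A match describes letters in a window and not a site in use.

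The members differed between the tumor models before treatment. In untreated tumors, Arg1, Acod1 and F10 were higher in transplants than in primary tumors, by 10.5-, 8.0- and 3.84-fold, and no member was called lower. This was 3 of 10 members, where 10.3% of the 19327 genes tested were called in either direction (edgeR quasi-likelihood test, Benjamini-Hochberg adjusted p under 0.05 over all genes tested, as in every comparison below). Under anti-PD-1 at 0 Gy, Arg1, Acod1, Chil3 and F10 were higher in transplants (4 of 10, where 7.35% of all genes were called). After 20 Gy, 0 of 10 members were called between the models with either antibody, where 4.87% of genes were called with isotype and 6.76% with anti-PD-1. At an unadjusted p under 0.05 those counts were 3 and 0 members, where 3599 and 4610 of the 19327 genes passed. DESeq2 called 1 and 0 members, and the share of all genes that it called is not given here or below. The median log2 fold change of the 10 members went from 0.89 and 1.98 at 0 Gy to -0.15 and -0.30 at 20 Gy, and that of all genes tested lay between -0.04 and 0.01 in these 4 comparisons.

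**Figure D1:**
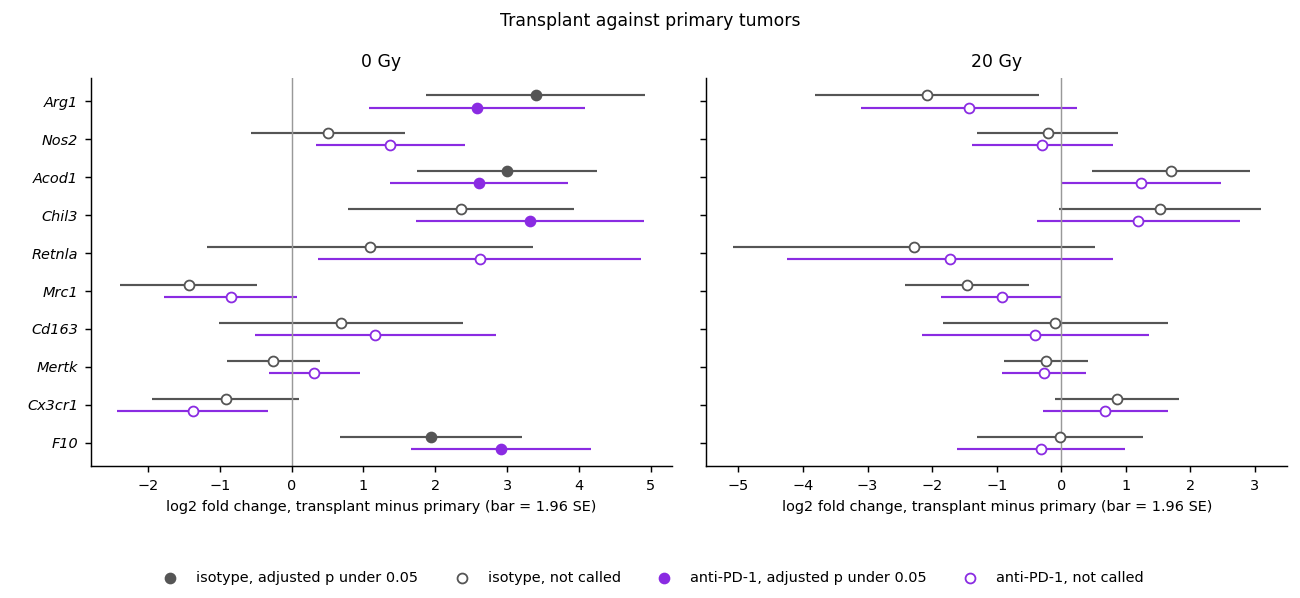
Log2 fold changes of the 10 members, transplant minus primary, at 0 Gy (left) and 20 Gy (right), with either antibody; bars are 95% intervals and filled points have an adjusted p under 0.05. At 0 Gy the filled points of Arg1, Acod1, Chil3 and F10 lie between 1.94 and 3.40, and at 20 Gy no point is filled.

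Radiation changed 6 of the 10 members in primary tumors. In primary tumors given isotype, Acod1, F10, Arg1, Chil3 and Mertk rose after 20 Gy and Cx3cr1 fell, where 18.3% of all genes were called. The median log2 fold change of the 10 members was 1.06, and that of all genes -0.01. With anti-PD-1 in both arms the same 5 members rose, 5 of 10 where 11.2% were called, and Cx3cr1 missed the threshold (adjusted p = 0.0549). In transplants, 0 of 10 members were called after radiation with isotype, where 1.92% of genes were called, and 0 of 10 with anti-PD-1, where 0.595% were called. At an unadjusted p under 0.05 these were 5 and 1 members, where 2335 and 2540 of the 19327 genes passed. DESeq2 called 1 (Acod1) and 0 members. The transplant comparisons set 4 against 4 tumors and those of primary tumors 8 against 8, so their standard errors were wider. The median log2 fold change of the members was 1.98 in primary tumors given anti-PD-1, 0.56 in transplants given isotype and 0.09 in transplants given anti-PD-1. The difference in the effect of radiation between the models, averaged over the antibodies, was tested directly and called 1 of 10 members, Arg1, where 0.0259% of all genes (5 of 19327) were called. At an unadjusted p under 0.05 it held 6 members, where 1652 of the 19327 genes passed. DESeq2 called 3 members (Arg1, Cx3cr1 and F10).

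**Figure D2:**
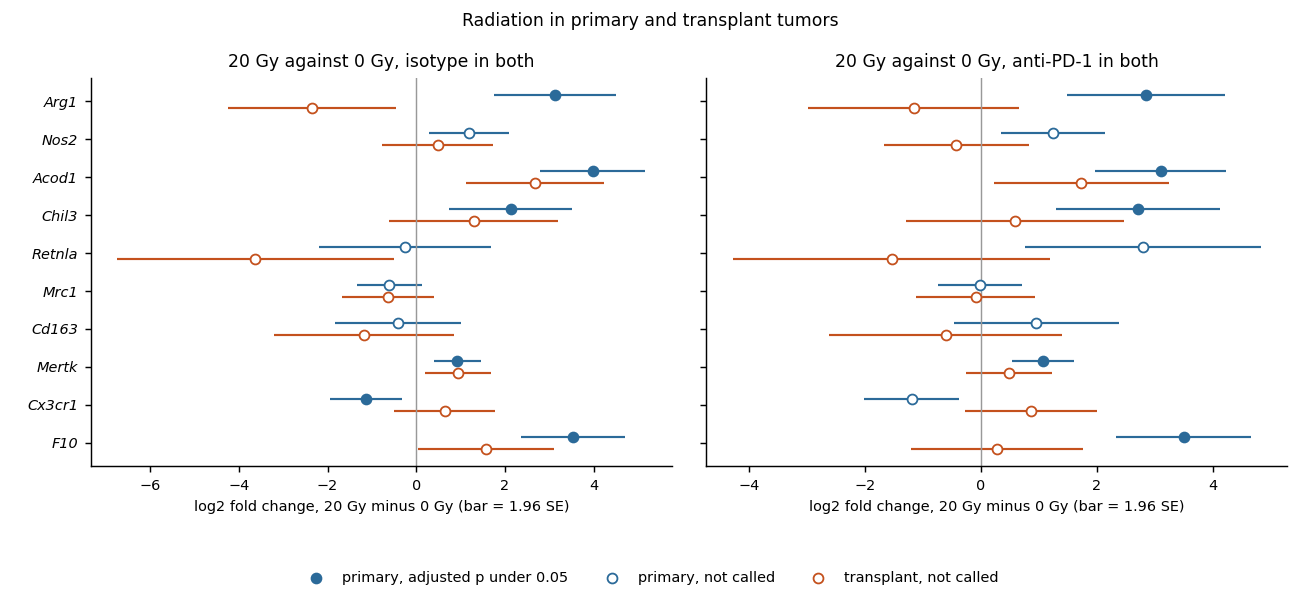
Log2 fold changes of the 10 members, 20 Gy minus 0 Gy, in primary (blue) and transplant (orange) tumors with isotype (left) or anti-PD-1 (right) in both arms; bars are 95% intervals and filled points have an adjusted p under 0.05. The points of Arg1 lie on opposite sides of 0 in the models with both antibodies, at 3.13 and 2.85 in primary tumors against -2.35 and -1.16 in transplants, and those of Cx3cr1 do so the other way.

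Anti-PD-1 against isotype at the same dose called no member in either model. The counts were 0 of 10 in primary tumors and in transplants at 0 Gy and at 20 Gy, and 0 of 10 for the difference of its effect between the models at 0 Gy. The background was 0% of the 19327 genes in primary tumors and 0% in transplants at 0 Gy, 0% and 0% at 20 Gy, and 0% for the difference between the models. At an unadjusted p under 0.05, 1, 2, 1, 1 and 0 members were counted in that order, and DESeq2 called 0 in each. The combination of 20 Gy and anti-PD-1 against untreated tumors called 7 of 10 members in primary tumors, where 18.8% of genes were called, and 1 of 10 in transplants (Acod1), where 4.41% were called. The untreated tumors serve as the control of radiation with isotype, of anti-PD-1 alone and of the combination, so these comparisons share libraries.

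**Figure D3:**
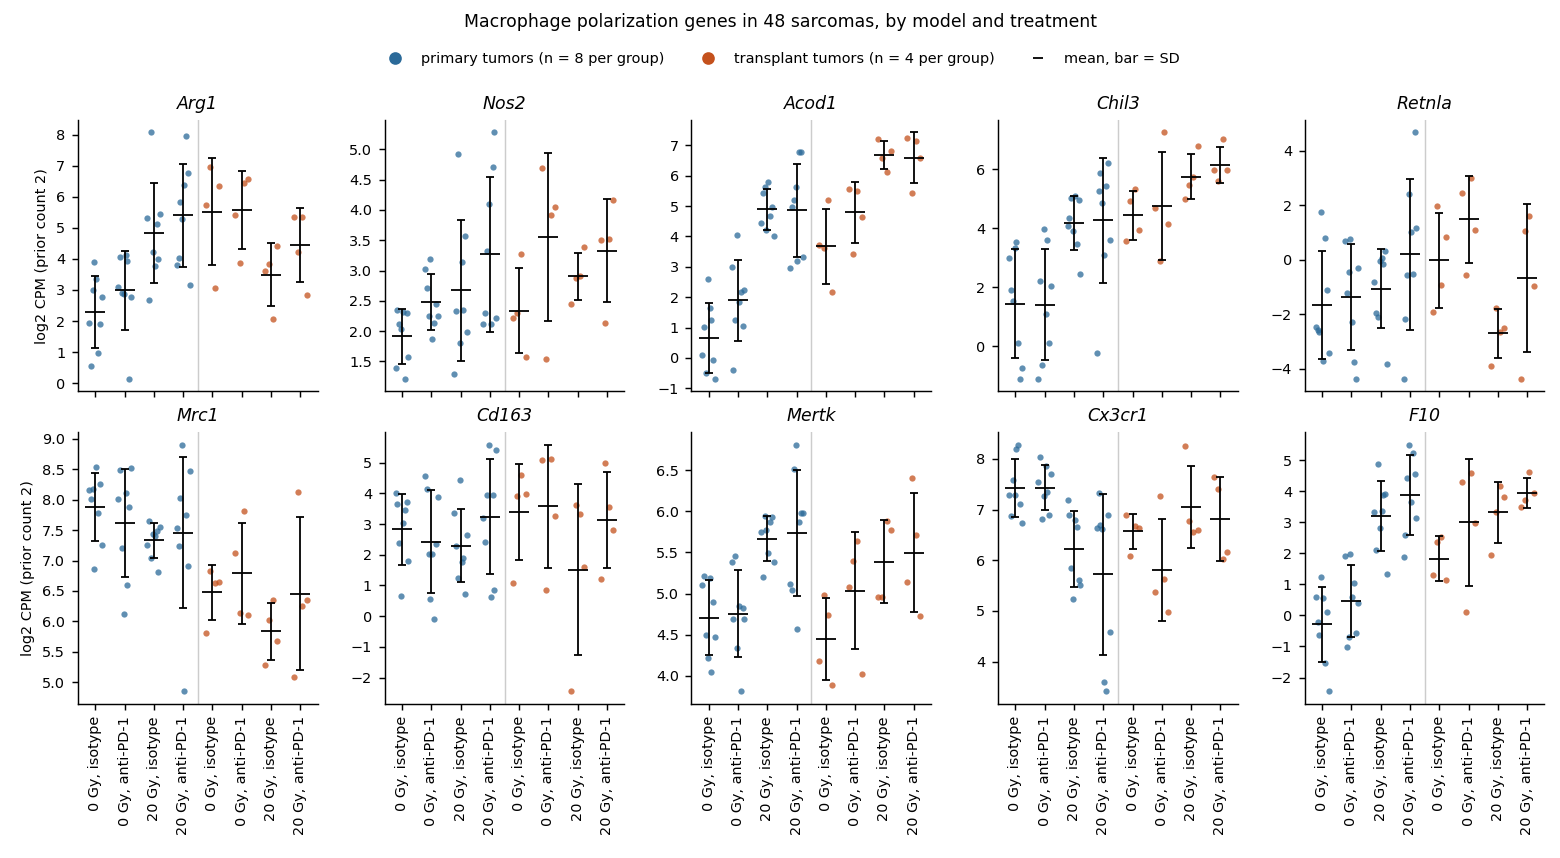
Log2 CPM of each member (prior count 2) in each of the 48 tumors, by model, dose and antibody, with the mean and SD of each group of 8 primary (blue) or 4 transplant (orange) tumors. The mean of Acod1 is higher at 20 Gy than at 0 Gy in both models, and that of Arg1 is higher at 20 Gy in primary tumors and at 0 Gy in transplants, where the difference was not called.

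Arg1 and Nos2 encode the enzymes that compete for arginine. Arg1 (chromosome 10, 24915221 to 24927484 on GRCm38, minus strand) ran from 1.43 to 14.9 CPM with a median of 5.31 in the 8 untreated primary tumors. The 4 untreated transplants had 8.35, 53.3, 81.0 and 123.2 CPM. Of these 4, 3 lay above every untreated primary tumor and 1 lay within their range. The log2 fold change was 3.40 ± 0.78 (SE), adjusted p = 0.00338. Under anti-PD-1 at 0 Gy, primary tumors ran from 1.05 to 17.3 CPM with a median of 7.95, and transplants had 14.6, 42.5, 87.8 and 95.2 CPM. Again 3 of 4 transplants were above all the primary tumors (log2 fold change 2.58 ± 0.77 (SE), adjusted p = 0.0305), a call that 12 of 18 alternatives kept. It was lost without transplant replicates 1, 3 or 4 or primary replicates 7 or 8 of that group (adjusted p from 0.0503 to 0.115). One primary tumor of that group, at 1.05 CPM, stood below the other 7, which ran from 6.76 to 17.3 CPM.

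After 20 Gy, Arg1 ran from 6.32 to 268 CPM with a median of 26.6 in primary tumors given isotype and from 8.94 to 250.2 CPM with a median of 47.8 in those given anti-PD-1. Of the 8 irradiated tumors, 6 with isotype and 5 with anti-PD-1 were above every tumor of their 0 Gy group, and 1 tumor in each group stood at 250.2 CPM or more. Radiation raised Arg1 in primary tumors, with log2 fold changes of 3.13 ± 0.71 (SE), adjusted p = 0.00148, with isotype and 2.85 ± 0.70 (SE), adjusted p = 0.00594, with anti-PD-1. Without the highest tumor of each irradiated group they were 1.97 (adjusted p = 0.0245) and 2.23 (adjusted p = 0.0254). Irradiated transplants had 4.14, 12.2, 14.4 and 21.5 CPM with isotype and 7.13, 18.5, 40.5 and 41.1 CPM with anti-PD-1. Their ranges overlapped with those of transplants at 0 Gy, and the log2 fold changes were -2.35 ± 0.97 (SE), adjusted p = 0.270, and -1.16 ± 0.93 (SE), adjusted p = 0.645, neither of them called. The difference between the models in the effect of radiation was -4.75 ± 0.85 (SE), adjusted p = 0.0184, a 26.8-fold difference of folds. It was lost with no filter on low counts (adjusted p = 0.0600) and without replicate 1 of the irradiated transplants given isotype (adjusted p = 0.0587), and over all alternatives the adjusted p ran from 4.28e-06 to 0.0600.

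Nos2 (chromosome 11, 78920787 to 78960254, plus strand) was low and showed the smallest differences between groups among the enzymes. It ran from 2.26 to 5.05 CPM with a median of 4.18 in untreated primary tumors, and was 2.94, 4.58, 4.86 and 9.57 CPM in untreated transplants. These ranges overlapped, and the log2 fold change between the models was 0.50 ± 0.54 (SE), adjusted p = 0.597. After 20 Gy, primary tumors ran from 2.40 to 30.4 CPM with a median of 5.01 with isotype and from 4.27 to 38.8 CPM with a median of 7.43 with anti-PD-1. At 0 Gy with anti-PD-1 they ran from 3.60 to 9.13 CPM with a median of 5.04. The irradiated groups were mixed: 4 of 8 tumors exceeded every 0 Gy tumor with isotype and 4 of 8 with anti-PD-1, and the others lay within the range of the tumors at 0 Gy. Neither comparison passed the threshold (1.19 ± 0.46 (SE), adjusted p = 0.0623, and 1.24 ± 0.46 (SE), adjusted p = 0.0699), although DESeq2 called both. The combination against untreated primary tumors was called, with a log2 fold change of 1.83 ± 0.47 (SE), adjusted p = 0.00493. In irradiated transplants Nos2 was 5.41, 7.31, 7.45 and 10.5 CPM with isotype and 4.32, 11.3, 11.4 and 17.8 CPM with anti-PD-1, against 2.84, 15, 16.5 and 25.9 CPM with anti-PD-1 alone. All of these overlapped, and no comparison within the transplants was called for Nos2.

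Acod1 (chromosome 14, 103046977 to 103056573, plus strand) had the largest fold change of the members after radiation with isotype. It ran from 0.568 to 6.02 CPM with a median of 1.5 in untreated primary tumors and from 16 to 55.7 CPM with a median of 28.2 after 20 Gy with isotype. All 8 irradiated tumors were above all 8 untreated ones, and the log2 fold change was 3.98 ± 0.60 (SE), adjusted p = 1.12e-05, a 15.8-fold rise. With anti-PD-1 in both arms the levels ran from 0.713 to 16.5 CPM with a median of 4.0 at 0 Gy and from 7.77 to 109.9 CPM with a median of 34 at 20 Gy. There 5 of 8 irradiated tumors were above all those at 0 Gy, and the log2 fold change was 3.11 ± 0.58 (SE), adjusted p = 0.000444.

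Untreated transplants had 4.44, 12.4, 13.1 and 36.5 CPM of Acod1, and 3 of 4 were above every untreated primary tumor (log2 fold change 3.00 ± 0.64 (SE), adjusted p = 0.00169). Without transplant replicate 3 it was 2.28 (adjusted p = 0.0282). Under anti-PD-1 at 0 Gy, transplants had 10.7, 25, 45.5 and 47.5 CPM, and the log2 difference from primary tumors was 2.61 ± 0.63 (SE), adjusted p = 0.00690. Irradiated transplants reached 70.1, 95.5, 112.2 and 147 CPM with isotype and 42.8, 95.1, 139.9 and 151 CPM with anti-PD-1. All 4 with isotype were above all 4 untreated transplants, with a log2 fold change of 2.68 ± 0.80 (SE), adjusted p = 0.0683, which missed the threshold. The combination against untreated transplants was called (2.69 ± 0.80 (SE), adjusted p = 0.0396), a call that 6 of 14 alternatives kept. With the macrophage genes as a covariate the log2 fold change was 2.00 (adjusted p = 0.525), without untreated replicate 3 it was 3.43 (adjusted p = 0.0187), and the call was also lost without any of 3 untreated transplants (up to 0.171) or any of 3 of the combination group. The radiation effect on Acod1 was not shown to differ between the models (difference -1.33 ± 0.66 (SE), adjusted p = 0.580). In order of the group means, Acod1 was highest in both irradiated transplant groups, whose values overlapped, followed by both irradiated primary groups and transplants at 0 Gy with anti-PD-1, which overlapped too, then untreated transplants and primary tumors at 0 Gy with anti-PD-1, and was lowest in untreated primary tumors at 2.08 ± 1.83 CPM (SD, n = 8).

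The secreted proteins of the alternative state did not behave alike. Chil3 (chromosome 3, 106147554 to 106167564, minus strand) ran from 0.417 to 11.6 CPM with a median of 3.27 in untreated primary tumors. Untreated transplants had 11.8, 15.2, 30.2 and 40.4 CPM, all 4 above every untreated primary tumor, and yet the log2 fold change of 2.36 ± 0.80 (SE), adjusted p = 0.0507, just missed the threshold. Under anti-PD-1 at 0 Gy, primary tumors ran from 0.412 to 15.7 CPM with a median of 3.08, and transplants had 7.31, 17.8, 25.4 and 152 CPM. This difference was called (3.32 ± 0.81 (SE), adjusted p = 0.00758), with 1 transplant (replicate 3) far above the other 3. Without it the log2 fold change was 1.70, and the call was lost (adjusted p = 0.283). After 20 Gy, Chil3 in primary tumors ran from 5.33 to 34.3 CPM with a median of 18.5 with isotype and from 0.793 to 74.4 CPM with a median of 33.5 with anti-PD-1. Radiation raised it with isotype (2.13 ± 0.71 (SE), adjusted p = 0.0301) and with anti-PD-1 (2.71 ± 0.72 (SE), adjusted p = 0.0112), and 6 and 5 of 8 irradiated tumors were above all at 0 Gy. The call with isotype was kept under 15 of 22 alternatives, and lost at an adjusted p of 0.0510 to 0.0598 without any of 5 libraries. In irradiated transplants Chil3 was 31.6, 44.4, 53.5 and 109.4 CPM with isotype and 47.9, 62.7, 63.2 and 129.1 CPM with anti-PD-1, with each group's median above that at 0 Gy, and not called (1.29 ± 0.97 (SE), adjusted p = 0.685, and 0.58 ± 0.96 (SE), adjusted p = 0.860). With the macrophage genes as a covariate, both calls of radiation in primary tumors were lost for Chil3, with log2 fold changes of 1.49 and 2.16 (adjusted p = 0.231 with isotype and 0.0573 with anti-PD-1).

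Retnla (chromosome 16, 48842551 to 48844461, plus strand) was near the limit of detection and was called by edgeR in no comparison. It ran from 0.0288 to 3.34 CPM with a median of 0.126 in untreated primary tumors and was 0.215, 0.473, 1.73 and 3.85 CPM in untreated transplants. At 0 Gy with anti-PD-1, primary tumors ran from 0 to 1.64 CPM with a median of 0.527, and transplants had 0.626, 2.05, 5.39 and 7.97 CPM. These groups overlapped. After 20 Gy, primary tumors ran from 0.0227 to 1.2 CPM with a median of 0.690 with isotype. Those given anti-PD-1 ran from 0 to 25.5 CPM with a median of 1.30, where 1 tumor at 25.5 CPM held most of the group's summed level, and transplants had 0.0195, 0.110, 0.127 and 0.247 CPM with isotype and 0, 0.470, 2.05 and 2.97 CPM with anti-PD-1. Groups overlapped in every comparison. The largest log2 fold change within a model was that of radiation in transplants given isotype (-3.63 ± 1.59 (SE), adjusted p = 0.319), and the smallest adjusted p was that of the combination in primary tumors (2.62 ± 1.03 (SE), adjusted p = 0.0670). DESeq2 called Retnla higher in the latter (2.68, adjusted p = 0.0254) and after radiation in primary tumors given anti-PD-1 (2.81, adjusted p = 0.0246, against 2.80 ± 1.04 (SE), adjusted p = 0.0723, by edgeR). Its standard errors, from 0.99 to 1.70 on the log2 scale, were the widest of the set.

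Mrc1 and Cd163 are scavenger receptors of tissue macrophages. Mrc1 (chromosome 2, 14229392 to 14332057, plus strand) ran from 116.4 to 370.4 CPM with a median of 271 in untreated primary tumors and was 56.3, 99.4, 100.2 and 113.3 CPM in untreated transplants. All 4 transplants were below every primary tumor, and the log2 fold change of -1.44 ± 0.49 (SE), adjusted p = 0.0510, lay just outside the threshold. After 20 Gy with isotype, primary tumors ran from 112.2 to 202 CPM with a median of 171 and transplants had 38.9, 50.9, 64.8 and 82.0 CPM, again with no overlap (-1.47 ± 0.49 (SE), adjusted p = 0.0725). DESeq2 called both of these differences, and both passed with the general macrophage genes as a covariate (log2 fold changes -1.58 and -1.67, adjusted p = 0.00712 and 0.00781). With anti-PD-1 the ranges overlapped: Mrc1 was 68.7, 70.0, 139.7 and 224 CPM in transplants at 0 Gy and 33.8, 76.3, 81.4 and 281 CPM at 20 Gy, and primary tumors ran from 69.5 to 367 CPM with a median of 246 and from 28.8 to 480.3 CPM with a median of 200.2. Radiation in primary tumors was not called for Mrc1 (log2 fold change -0.61 ± 0.37 (SE), adjusted p = 0.258, with isotype and -0.01 ± 0.37 (SE), adjusted p = 0.988, with anti-PD-1, 95% intervals -1.34 to 0.12 and -0.74 to 0.72). Relative to the general macrophage genes it was lower after radiation with isotype: with those genes as a covariate the log2 fold change was -1.46 (adjusted p = 0.00660). The same covariate called Mrc1 lower for the combination in primary tumors (-1.07, adjusted p = 0.0400), but not for radiation with anti-PD-1 in both arms. In whole tumors, fewer macrophages with a transcript and less of it per macrophage cannot be told apart.

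Cd163 (chromosome 6, 124304656 to 124330527, plus strand) spanned wide ranges within its groups. It ran from 1.51 to 16.1 CPM with a median of 9.51 in untreated primary tumors and was 2.05, 15.2, 15.7 and 24.0 CPM in untreated transplants. After 20 Gy with isotype, primary tumors ran from 1.60 to 21.6 CPM with a median of 4.21 and transplants had 0.136, 2.96, 9.92 and 12.1 CPM, where 1 library was almost without it. With anti-PD-1 at 0 Gy, primary tumors ran from 0.884 to 23.4 CPM with a median of 4.55 and transplants had 1.75, 9.59, 33.6 and 34.7 CPM. With anti-PD-1 at 20 Gy, primary tumors ran from 1.49 to 47.3 CPM with a median of 12.1 and transplants had 2.29, 6.92, 11.6 and 31.4 CPM. Groups overlapped in each comparison, and Cd163 was called in none, with log2 fold changes between -1.18 (radiation in transplants given isotype) and 1.36 (anti-PD-1 in irradiated primary tumors).

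Mertk binds Gas6 and protein S on dying cells and drives their uptake. It had the narrowest spread of the set (chromosome 2, 128698956 to 128802894, plus strand). Untreated primary tumors ran from 16.5 to 37.1 CPM with a median of 26.1, and irradiated ones from 36.9 to 61.4 CPM with a median of 54.2 with isotype. Of the 8 irradiated tumors, 7 were above every untreated one, and Mertk rose by 0.92 ± 0.27 (SE), adjusted p = 0.0136. With anti-PD-1 in both arms the levels ran from 14.0 to 43.7 CPM with a median of 27.0 at 0 Gy and from 23.7 to 112.2 CPM with a median of 60.6 at 20 Gy, where 5 of 8 exceeded all at 0 Gy (1.07 ± 0.27 (SE), adjusted p = 0.00796). In transplants Mertk was 14.8, 18.1, 26.7 and 31.6 CPM untreated and 30.9, 31.1, 54.5 and 58.7 CPM after 20 Gy with isotype. The log2 fold change there was 0.94 ± 0.38 (SE), close to that in primary tumors, and was not called (adjusted p = 0.265). With anti-PD-1 the transplants had 16.2, 33.8, 42.1 and 50 CPM at 0 Gy and 26.5, 35.4, 52.3 and 84.4 CPM at 20 Gy, which overlapped. The difference between the models in the effect of radiation was -0.28 ± 0.33 (SE), adjusted p = 0.872, with a 95% interval of -0.93 to 0.36. With the general macrophage genes as a covariate, the rise of Mertk in primary tumors shrank to 0.40 with isotype and 0.60 with anti-PD-1 (adjusted p = 0.377 and 0.139).

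Cx3cr1 was the only member called lower after radiation. Its gene model (chromosome 9, 119901616 to 120069879, minus strand) overlaps 9 other counted genes, among them the muscle gene Xirp1 on the same strand. The strand setting of the counting is not stated, so its counts are less certain than those of the other members. Its correlation with the skeletal muscle genes over the tumors was 0.05 (Pearson r, permutation p = 0.805, n = 48), with 0.17 within primary tumors and -0.36 within transplants. That list does not hold Xirp1, so this cannot decide whether reads of the overlapping genes were counted, which was not tested. Untreated primary tumors had a median of 156 CPM and reached 311 CPM, and the lowest was at a log2 CPM of 6.74. The irradiated ones ran from 37.5 to 146 CPM with a median of 79.3 with isotype. Of 8 irradiated tumors, 5 were below every untreated one, and Cx3cr1 fell with a log2 fold change of -1.14 ± 0.42 (SE), adjusted p = 0.0487. This call was kept under 8 of 22 alternatives, with adjusted p from 0.00405 to 0.107, and leaving out any of 11 libraries lost it. The lowest was with the macrophage genes as a covariate, where the log2 fold change was -1.98. With anti-PD-1, primary tumors ran from 112.1 to 263 CPM with a median of 174 at 0 Gy and from 10.6 to 162 CPM with a median of 99 at 20 Gy, where 3 tumors were at 24.0 CPM or less. In transplants, Cx3cr1 was 67.6, 99.3, 102.8 and 118.6 CPM untreated and 94.0, 97, 108.7 and 305 CPM after 20 Gy with isotype. One irradiated transplant was far above the other 3, which lay within the untreated range, and the log2 fold change was 0.64 ± 0.58 (SE), adjusted p = 0.769. With anti-PD-1 the transplants had 31.4, 41.1, 49.2 and 155 CPM at 0 Gy and 65.2, 71.8, 168 and 199 CPM at 20 Gy, which overlapped. The difference between the models in the effect of radiation was 1.92 ± 0.51 (SE), adjusted p = 0.158, and DESeq2 called it (adjusted p = 0.0463).

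F10 (chromosome 8, 13037308 to 13056676, plus strand) followed Acod1 in primary tumors. It ran from 0.136 to 2.29 CPM with a median of 0.920 in untreated primary tumors and from 2.45 to 29.4 CPM with a median of 10.2 after 20 Gy with isotype. The ranges did not overlap, and the log2 fold change was 3.54 ± 0.60 (SE), adjusted p = 4.84e-05. With anti-PD-1, 7 of 8 irradiated tumors were above all at 0 Gy, from 0.452 to 3.91 CPM with a median of 1.38 at 0 Gy and from 3.64 to 45.5 CPM with a median of 17.1 at 20 Gy (3.5 ± 0.59 (SE), adjusted p = 0.000169). Untreated transplants had 2.15, 2.41, 5.13 and 5.74 CPM, of which 3 of 4 were above every untreated primary tumor (1.94 ± 0.65 (SE), adjusted p = 0.0456), a call kept under 6 of 18 alternatives and lost without any of the 4 transplants (adjusted p up to 0.126). Under anti-PD-1 the transplants at 0 Gy split, with 1.04, 7.79, 19.9 and 24.3 CPM, and the difference from primary tumors was 2.92 ± 0.64 (SE), adjusted p = 0.00299. Irradiated transplants had 3.82, 10.1, 14.1 and 18 CPM with isotype and 11.2, 13.3, 15.3 and 24.4 CPM with anti-PD-1, not called against 0 Gy (1.57 ± 0.78 (SE), adjusted p = 0.410, and 0.27 ± 0.76 (SE), adjusted p = 0.933). The difference between the models in the radiation effect was -2.60 ± 0.68 (SE), adjusted p = 0.149, and DESeq2 called it (adjusted p = 0.0257). Of 5 hepatocyte genes measured beside F10, edgeR called 0 after radiation in primary tumors with isotype (0 at an unadjusted p under 0.05, 0 by DESeq2) and 0 with anti-PD-1 (2 and 1). Of all genes, 18.3% and 11.2% were called in these comparisons, and 6185 and 5124 of 19327 had an unadjusted p under 0.05.

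Genes of the same pathways were counted from lists. These lists were also chosen with earlier results of these data known, so their counts beside the share of all genes are a description. Of 20 genes of classical activation other than the members, 15 rose and 0 fell after radiation in primary tumors given isotype, where 18.3% of all genes were called. Their median log2 fold change was 1.71, and that of all genes tested was -0.01. The largest rises were those of the interferon-induced chemokines Cxcl11 (3.74) and Cxcl9 (3.26), the cytokine Il1a (2.99) and the chemokine Ccl5 (2.75). In transplants given isotype 5 of 20 rose, where 1.92% of all genes were called, and the median was 1.03. Cxcl11 (2.91) and Ccl5 (2.66) again led, ahead of Tnf (1.98) and the formyl peptide receptor Fpr2 (1.92). Of 20 genes of alternative activation, 7 rose and 0 fell in primary tumors (median 0.87), led by the PD-1 ligand Pdcd1lg2 (2.25), the chemokine Ccl22 (1.80), Il10 (1.80) and the scavenger receptor Msr1 (1.11). In transplants edgeR called 0 of 20 (median 0.45), with 3 at an unadjusted p under 0.05 and 0 by DESeq2. Of all 19327 genes, 2335 passed that unadjusted threshold there. The test of the difference between the models called 0 of 20 classical genes (3 unadjusted, 0 by DESeq2) and 0 of 20 alternative genes (3 unadjusted, 0 by DESeq2). That test called 0.0259% of all genes, and 1652 of 19327 had an unadjusted p under 0.05.

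The enzymes and partners around the members were counted in the same comparison, where 18.3% of all genes were called. Of 12 measured genes of arginine and itaconate metabolism, 2 rose and 3 fell after radiation in primary tumors given isotype. The other arginase, Arg2 (log2 fold change 2.10), and Gch1 (1.51), which makes the cofactor of nitric oxide synthase, rose, while spermidine synthase Srm (-0.58) and ornithine aminotransferase Oat (-0.57) fell. Of 13 measured receptor partners and ligands, 3 rose, namely the growth factor Csf2 (3.35), Ifng (2.27) and the CD163 ligand haptoglobin, Hp (1.86), and 1 fell, Adam10 (-0.43), which sheds fractalkine. Of 13 measured coagulation genes, 2 rose, which were factor VII, F7 (3.27), which activates factor X together with tissue factor, and factor V, the cofactor of activated factor X, F5 (1.56), and 2 receptors, F2rl1 (-1.34) and F2r (-1.12), fell. Of 5 measured paralogs of the members, Chil1 rose (2.76). In transplants given isotype, edgeR called 0 genes of these 4 lists after radiation, where 1.92% of all genes were called. There 2 of 12 arginine, 4 of 13 partner, 1 of 13 coagulation and 0 of 5 paralog genes had an unadjusted p under 0.05, and DESeq2 called 1, a coagulation gene. Of all 19327 genes, 2335 passed that unadjusted threshold.

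The same lists were counted between the untreated models, where 10.3% of all genes were called. Of 20 alternative activation genes 3 were higher and 3 lower in transplants, with the lipoxygenase Alox15 (4.27) and Pdcd1lg2 (2.17) higher and Lyve1 (-3.14) and Stab1 (-1.19), 2 hyaluronan and scavenger receptors of resident macrophages and of some endothelia, lower. Of 20 classical activation genes 4 were higher and 0 lower, namely Cxcl9 (2.75), Ptgs2 (2.44), Cxcl11 (1.99) and Tnf (1.52). Among the arginine genes, the transporter Slc7a1 (-1.53) and Oat (-0.78) were lower and ornithine decarboxylase Odc1 (1.26), which uses the ornithine made by arginase, was higher. Among partners, Ifng (2.85) and Hp (2.71) were higher and Csf1 (-1.02) and Axl (-0.91), a relative of Mertk, were lower in transplants. Of the paralogs, Chil1 (3.27) was higher and Mrc2 (-0.99) lower. The coagulation genes F5 (3.79) and Procr (0.84) were higher.

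Markers of the cells that could carry these transcripts were summed in each tumor. The 12 general macrophage genes totalled 2418 to 5471 CPM in untreated primary tumors (median 3181) and 3708 to 8363 CPM after 20 Gy with isotype (median 5531), and 7 of 12 were called higher. In transplants they went from 3218 to 3919 CPM (median 3457) to 4885 to 7309 CPM (median 5601), with 2 of 12 called higher. The 5 monocyte genes went from a median of 442 to 1308 CPM in primary tumors and from 579 to 1285 CPM in transplants. Of these 5, 4 were called higher in primary tumors, and 0 in transplants (2 by DESeq2). Their sum was 274 CPM in the library labelled as the primary tumor 402230, where 3 of the 5 had 3 counts or fewer. The monocyte sum therefore need not stand for monocytes alone. The 10 neutrophil genes had medians of 237 and 229.6 CPM in primary tumors and 167 and 259.9 CPM in transplants, with ranges of 109.7 to 2045 and 145 to 870.2 CPM in the former. These sums rest on the most abundant genes, and the mean log2 CPM of the neutrophil list went from 0.65 to 1.77 in primary tumors and from 2.96 to 1.99 in transplants. Of the 10 neutrophil genes, 3 rose and 1 fell after radiation in primary tumors given isotype (median log2 fold change 1.80, 6 called by DESeq2), 0 rose and 1 fell in transplants (median -0.39), and 2 were higher and 0 lower in untreated transplants than in untreated primary tumors (median 2.01). No marker of these 3 lists was at 0 in all libraries of a group. Of all genes tested, 18.3% were called after radiation in primary tumors given isotype, 1.92% in transplants and 10.3% between the untreated models. With the macrophage genes as a covariate, the calls of Arg1, Acod1 and F10 after radiation in primary tumors held, and the part of monocytes and neutrophils in these results was not tested. Skeletal muscle genes, from the muscle in which the tumors grew, summed to 63.7 to 5653 CPM in untreated primary tumors and 78.2 to 19520 CPM in untreated transplants, and with them as a covariate the log2 fold change of F10 between the untreated models was 1.82, against 1.94 without, and was not called (adjusted p = 0.0710).

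Among tumors treated alike, the members fell into separate patterns. Each member's log2 CPM was taken as its deviation from the group mean, and pairs were correlated over the 48 tumors with permutation within groups. Of 45 pairs, 11 had an adjusted p under 0.05, and all 11 were positive. The share of pairs that would pass among all genes tested is not given here. Grouped after these values were seen, Nos2, Acod1, Chil3 and F10 were correlated with each other in 6 of 6 pairs, with r from 0.45 to 0.66, and Mrc1, Cd163 and Mertk in 3 of 3 pairs, with r from 0.48 to 0.79. Of the 12 pairs between these sets 0 passed by r, which ran from -0.15 to 0.35, and 1 passed by rho, Mertk with F10 (0.43, adjusted permutation p = 0.0221). Within transplants some of these pairs had higher r, such as Cd163 with F10 (0.74, against -0.09 within primary tumors), Chil3 with Cd163 (0.52 against -0.26) and Mrc1 with F10 (0.49 against -0.06), and these differences were not tested. The other 2 pairs that passed joined F10 to Retnla (r = 0.50, rho = 0.44, adjusted p = 0.00337 and 0.0194 by permutation) and to Arg1 (r = 0.39, rho = 0.30, adjusted p = 0.0462 and 0.177 by permutation). The strongest pair was Mrc1 with Cd163, with r = 0.79 and rho = 0.79 (adjusted permutation p = 0.000150 for each), 0.82 within primary tumors, 0.76 within transplants and 0.79 without the 2 tumors farthest from the median. Cx3cr1 passed with no other member over the 48 tumors, with r from -0.24 to 0.18. Within the 16 transplants its r was -0.77 with F10, -0.69 with Nos2 and -0.64 with Cd163, against -0.05, -0.04 and 0.07 within the 32 primary tumors, a difference that was not tested.

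**Figure D4:**
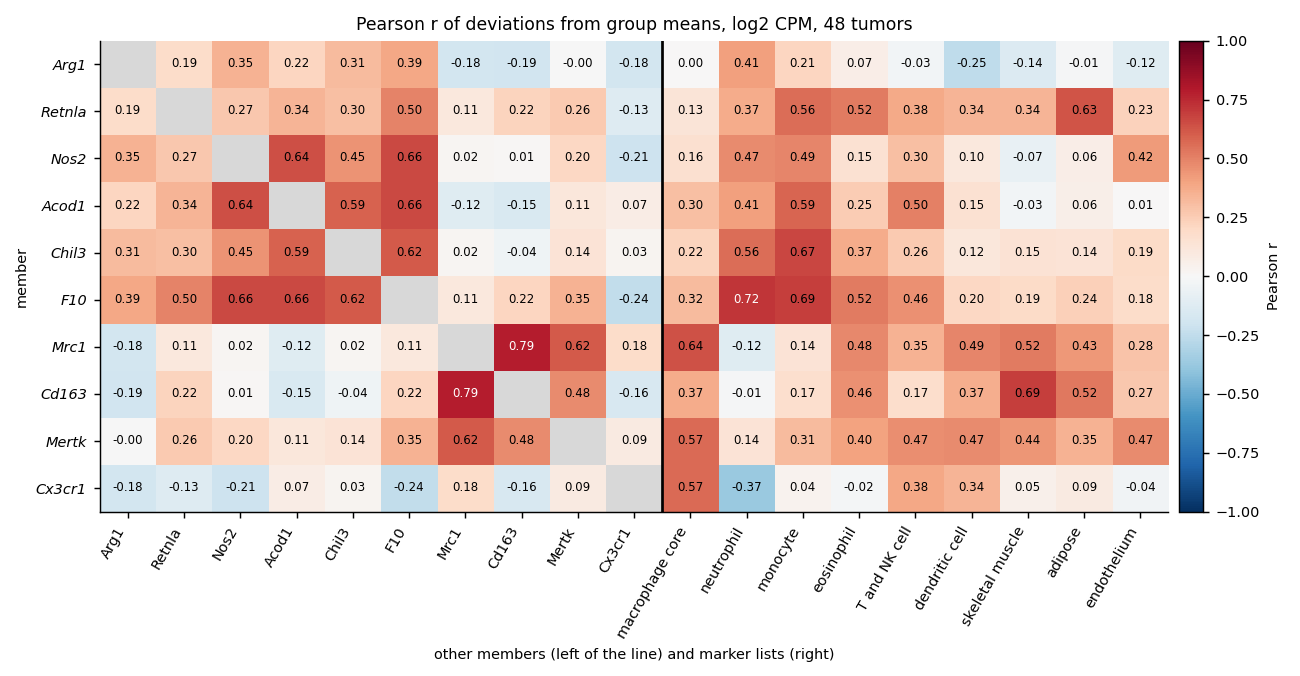
Pearson r over 48 tumors, on deviations of log2 CPM from the group means, between the members (left of the line) and between members and the mean of each marker list (right). Grouped after these values were seen, Nos2, Acod1, Chil3 and F10 form a block with r from 0.45 to 0.66. Mrc1, Cd163 and Mertk, grouped in the same way, form a block with r from 0.48 to 0.79.

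The members were also set against marker lists. The share of all genes tested that would pass against these lists is not given here, so the counts describe the members alone. Against the mean of the 12 general macrophage genes (10 relations), Mrc1 (r = 0.64, rho = 0.50, adjusted permutation p = 0.00200 and 0.0143), Mertk (0.57, 0.44, 0.00225 and 0.0173), Cx3cr1 (0.57, 0.49, 0.00787 and 0.0145) and Cd163 (0.37, 0.37, 0.0470 and 0.0418) passed. Without the 2 farthest tumors r was 0.42, 0.42, 0.44 and 0.23, and for Cx3cr1 it was 0.67 within primary tumors and 0.17 within transplants. Arg1 had an r of 0.00 (rho = 0.04, adjusted permutation p = 0.991 and 0.816).

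Against 8 other marker lists, chosen after the macrophage result was seen, 30 of 80 relations had an adjusted p under 0.05, all with positive r. Here too no share of all genes is given beside this count. Those with the largest r are named here. F10 followed the neutrophil genes (r = 0.72, rho = 0.68, adjusted permutation p = 0.000267 for each) and the monocyte genes (0.69, 0.70, 0.000267 for each). Chil3 followed the monocyte genes (0.67, 0.66, 0.000400 and 0.000320 by permutation) and the neutrophil genes (0.56, 0.50, 0.00327 and 0.00750). Cd163 followed the skeletal muscle genes (0.69, 0.69, 0.000267 for each), and Retnla followed the adipose genes (0.63, 0.62, 0.000480 and 0.000533 by permutation). The monocyte genes were also followed by Acod1 (0.59, 0.60, 0.000933 and 0.000571 by permutation) and Retnla (0.56, 0.51, 0.00170 and 0.00596). Without the 2 tumors farthest from the median these r values were 0.69, 0.64, 0.58, 0.46, 0.71, 0.68, 0.50 and 0.44 in that order. All of them were positive within each model.

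The genes whose pattern was most like each member, by Pearson r of the same deviations over the 48 tumors among all genes tested, were as follows and are given as a description. Arg1 was most like Gm36172 (r = 0.77), a long noncoding RNA on the opposite strand that runs away from the start of Arg1 (chromosome 10, 24927619 to 24930059), then Gm16754 (0.66) and cyclin G2, Ccng2 (0.66). Gm36172 and Gm16754 had low means over the tumors, at 0.180 and 0.573 CPM. Nos2 and F10 shared their nearest pair, Tarm1 (0.70 and 0.86) and the leukotriene B4 receptor Ltb4r1 (0.68 and 0.84), followed by Csrnp1 for Nos2 (0.67) and Mcemp1 for F10 (0.83). Acod1 was most like genes of antigen presentation, H2-Q7 (0.78) and B2m (0.74), and the chemokine Ccl4 (0.75). Chil3 was most like Ifitm6 (0.74), the neutrophil surface gene Cd177 (0.70) and Trem3 (0.69).

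Retnla was most like haptoglobin, Hp (0.73), Adamdec1 (0.67) and Mrap (0.67), and the means of Adamdec1 and Mrap were low, at 0.554 and 0.292 CPM. Mrc1 and Cd163 shared Stard8 (0.89 and 0.83) and Gas6 (0.86 and 0.84), the ligand of Mertk, with Trpv4 for Mrc1 (0.87) and Atp8a2 for Cd163 (0.82). Mertk was most like Tbc1d14 (0.87) and the nucleic acid sensors Tlr8 (0.83) and Tlr7 (0.81), and Cx3cr1 was most like Ppfia4 (0.81), Gm5086 (0.80) and the prostaglandin synthase Hpgds (0.79).

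Of the single libraries of line 402230, the one labelled as the primary tumor gave the levels of the members where macrophage transcripts were nearly absent. In the one labelled as the cell line, the summed macrophage level of 2053 CPM lay within the range of the tumors. In the library labelled as the primary tumor, Arg1 was at 12.3 CPM (552 counts, 95% Poisson interval 11.3 to 13.4 CPM), a level that 18 of 48 tumors did not reach. Mertk was at 6.91 CPM (309 counts, 95% Poisson interval 6.16 to 7.72 CPM), below the lowest tumor at 13.8 CPM. Mrc1 was at 0.760 CPM (34 counts, 95% Poisson interval 0.526 to 1.06 CPM), and its lowest tumor was at 27.8 CPM. The other 7 members had at most 5 counts there: Chil3, Retnla and F10 had 0, which allows a level of up to 0.0670 CPM (3 counts, a one-sided limit; the upper bound of the two-sided Poisson interval used for the others is 0.0824 CPM). Arg1 was therefore the member with the highest level in that library, while Cx3cr1, among the most abundant members in tumors, had 4 counts. In the library labelled as the cell line, Mrc1 and Cx3cr1 were the highest members and Cx3cr1 was at 115.9, Arg1 at 35.0 and Mertk at 28.3 CPM, and Nos2, F10, Chil3, Cd163, Acod1 and Retnla ran from 4.68 down to 0.152 CPM. All 10 levels lay within the range of the 48 tumors. Each library stands alone, so no test was made, and the intervals cover counting error only.

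**Figure D5:**
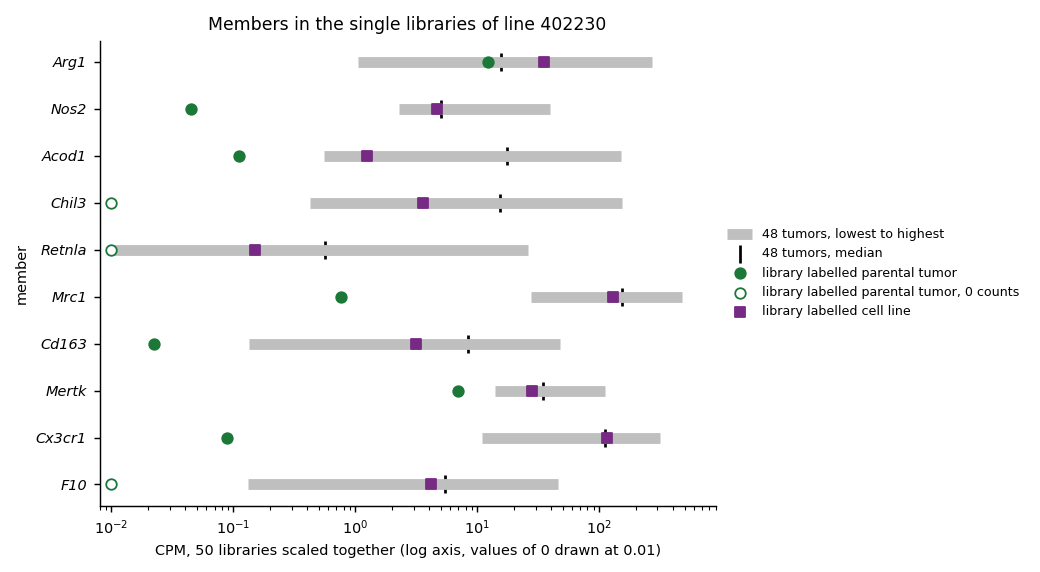
CPM of each member (log axis, 50 libraries scaled together) in the library labelled as the primary tumor 402230 (green) and the library labelled as the cell line (purple), beside the range and median of the 48 tumors (grey bar and black tick). The purple points lie within the grey bars for all 10 members, and of the green points only that of Arg1, at 12.3 CPM, lies well inside.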

How the data were processed

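Whole tumors were sequenced as poly(A) RNA from stranded libraries. The authors used Trimmomatic 0.36 for trimming and STAR for alignment against mm10, and counted per GENCODE M17 gene with the HTSeq method. The deposited values are raw read counts, and the strand setting is not given in the sources used here. Identifiers were matched to GENCODE M21 (37408 of 37469), ignoring versions.

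One edgeR 4.0.16 quasi-likelihood model (R 4.3.3) was fitted to the 48 tumors, with TMM factors, filterByExpr by group, a mean per group and no covariate. P-values were two-sided and Benjamini-Hochberg adjusted over 19327 genes, with 16 comparisons. CPM used TMM-scaled totals, and log2 CPM a prior count of 2. Each library is 1 tumor. Standard errors were derived from the F statistic. The fit was tested on simulated counts. The alternatives were DESeq2 1.42.0, RLE factors, no filter, only the groups compared, the skeletal muscle or macrophage genes as covariate and each library left out. Correlations used 100000 permutations within groups, of which 1e-05 is the smallest p. All members were named, with up to 4 called genes of largest change per list and comparison and the 3 genes most like each member. Members and lists were chosen with earlier results of these data known. One motif of the promoter search is not reported here. No member was left out by its result, and the authors' exome and single-cell data were not analysed here.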

Additional observations from a re-analysis of the deposited data

Results flagged for a closer look

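In 2 of the 80 groups of values examined (10 members in 8 groups), 1 tumor stood apart from the rest of its group by Dixon's test at its 95% level, which chance alone flags in about 1 in 20 groups. Arg1 in replicate 7 of the primary tumors given anti-PD-1 and 0 Gy was at a log2 CPM of 0.13 (1.05 CPM), where the other 7 ran from 6.76 to 17.3 CPM. Cx3cr1 in replicate 1 of the transplants given isotype and 20 Gy was at a log2 CPM of 8.25 (305 CPM), where the other 3 ran from 94.0 to 108.7 CPM.

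The effect of radiation on Arg1 differed between the models by a test of the difference itself: transplant minus primary, averaged over the antibodies, it was -4.75 ± 0.85 (SE) on the log2 scale (edgeR, adjusted p = 0.0184). The 4 other genes called in that test were Car4, which was also more negative in transplants, and Pea15a, Abi1 and Swap70, which were more positive; they were named after their values were seen.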

How the results depend on the processing

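No paired analysis was possible because the replicate numbers follow accession order and pair no tumors. No member past the threshold changed sign under any alternative. The number of members called went as follows. DESeq2 gave 5 where edgeR gave 3 (transplant against primary, untreated), 8 where it gave 5 (radiation in primary tumors, anti-PD-1), 3 where it gave 1 (radiation by model), and 1 where it gave 0 (radiation in transplants and transplant against primary at 20 Gy, isotype). With no filter the untreated model comparison gave 2, radiation in primary tumors with isotype 4, and the combination in transplants and radiation by model 0. With the macrophage covariate these were 5 (untreated model comparison), 0 (combination in transplants) and 1 (models at 20 Gy with either antibody), and the muscle covariate also gave 1 there with isotype. For radiation in primary tumors, the macrophage covariate gave 5 in place of 6 with isotype, losing Chil3 and Mertk and gaining Mrc1. It gave 4 in place of 5 with anti-PD-1, losing Chil3 and Mertk and gaining Cx3cr1. The muscle covariate gave 5 with isotype. Only the groups compared gave 3 for radiation in primary tumors with anti-PD-1, 2 for the combination in transplants, 1 for radiation in transplants and 2 for the models at 20 Gy, both with isotype.

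With each library left out in turn, calls ran from 2 to 5 and from 2 to 6 (models at 0 Gy, isotype and anti-PD-1), 4 to 7 and 5 to 8 (radiation in primary tumors), 6 to 8 and 0 to 1 (combination in primary tumors and transplants), 0 to 2 (radiation by model), 0 to 1 (radiation in transplants with isotype, and models at 20 Gy with anti-PD-1) and 0 to 0 elsewhere. The models at 0 Gy with anti-PD-1 fell to 2 without transplant replicate 3 of that group and rose to 6 without its replicate 2. Radiation by model fell to 0 without replicate 1 of the irradiated transplants given isotype. Radiation in primary tumors with anti-PD-1 reached 8 without replicate 1 of the irradiated group. The cause of these changes was not tested. By rho in place of r, 5 members were correlated with the macrophage genes in place of 4. Depth limits Retnla, which was at 3 counts or fewer in 8 tumors.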
